A study of Mus musculus with 4 samples.

Results

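The 10 genes described here encode enzymes of branched-chain amino acid (BCAA) catabolism that lie outside the branched-chain α-ketoacid dehydrogenase complex. Bcat2 acts before that complex, and Ivd, Mccc1, Mccc2, Auh, Hibch, Hibadh, Acadsb, Pcca and Pccb act after it. The genes were chosen by name, by a rule that uses no measured value but was set with earlier results of these data known, and all 10 were found among the 16472 genes of the deposited table. RNA was sequenced from skeletal muscle of wild-type (WT) mice that was fractionated by lysis and differential centrifugation. The first group, called isolated mitochondria, held 2 libraries, and the second, called remaining tissue, held 2 libraries that GEO describes as muscle tissue without its mitochondria but titles as total. A legend of the study's supplement speaks of lysates of total skeletal muscle instead, so the sources differ on whether the second group is whole or depleted tissue. The name remaining tissue follows the treatment label and is used for either case. Neither group carried a transgene, an allele other than WT or a drug, and the age of the mice is not given in the sources used here. The labels do not say whether libraries came from separate animals, so that p-values measure only the spread between these libraries. The comparison addressed which of the mRNAs for these mitochondrial enzymes are found with mitochondria of muscle, and at what level relative to other nuclear transcripts.

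Leucine, isoleucine and valine are broken down mainly outside the liver, and skeletal muscle is a main site of their transamination. The mitochondrial aminotransferase Bcat2 removes the amino group, the dehydrogenase complex then removes a carbon as CO2, and the acyl-CoA that remains enters a separate branch for each amino acid. The leucine branch ends in acetyl-CoA and acetoacetate, while isoleucine and valine catabolism give propionyl-CoA, which is carboxylated on its way to succinyl-CoA. The enzymes are encoded in the nucleus and act in the mitochondrial matrix. Proteins of this kind are made by cytosolic ribosomes, in part close to the mitochondrial surface, and are imported through an N-terminal presequence that is typically rich in basic and poor in acidic residues.

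This feature could be seen at the start of the coding sequences, which are printed for the 2 genes that passed the test (Ivd and Hibadh) and for the 2 with the highest ratio between fractions (Auh and Pccb). The first 90 coding bases of the GENCODE M21 transcripts (GRCm38) are given in the direction of the mRNA, with codons for arginine or lysine in capitals.
Ivd: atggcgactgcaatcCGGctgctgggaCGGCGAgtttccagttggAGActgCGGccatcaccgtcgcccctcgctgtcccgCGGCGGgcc
Hibadh: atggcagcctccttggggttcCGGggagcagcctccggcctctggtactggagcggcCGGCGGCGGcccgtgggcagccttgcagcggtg
Auh: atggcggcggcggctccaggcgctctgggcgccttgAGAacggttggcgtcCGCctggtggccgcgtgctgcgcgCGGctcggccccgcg
Pccb: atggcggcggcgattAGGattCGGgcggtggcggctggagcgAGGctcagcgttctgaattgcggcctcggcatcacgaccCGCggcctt
The stretch of 30 codons held 7 such codons in Ivd, 4 in Hibadh, 3 in Auh and 4 in Pccb, and no codon for aspartate or glutamate in any of them. At least 3 basic and 0 acidic codons were counted in 8 of the 10 genes, and in 921 of 12669 protein-coding nuclear genes of the table (7.27%). The exceptions were Mccc1, with 4 basic and 2 acidic codons, and Mccc2, with 5 basic and 1 acidic codon. The feature was thus shared by genes with unlike ratios between fractions.

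Mccc1 and Pcca encode the subunits of their carboxylases that carry biotin on a lysine. The codons around it are printed because the pair has the same function in separate complexes, with the lysine codon in capitals (coding bases 1999 to 2061 of Mccc1 and 2038 to 2100 of Pcca).
Mccc1: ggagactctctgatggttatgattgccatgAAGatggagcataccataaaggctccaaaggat
Pcca: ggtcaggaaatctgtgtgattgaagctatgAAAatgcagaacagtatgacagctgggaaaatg
Of these 63 bases, 30 were identical. In the coding parts, no stretch of at least 50 nt with at least 95% identity linked the pair, so that their reads could be told apart.

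Precision was set by the number of nuclear reads. Isolated mitochondria held 100924 and 181152 reads on nuclear genes in replicates 1 and 2, out of 42750337 and 35305299 assigned reads, while remaining tissue held an estimated 11988487 and 11967529 nuclear reads. Mitochondrially encoded genes took 95.3% and 94.1% of reads in isolated mitochondria, and 22.3% and 20.5% in remaining tissue. The 10 members were covered by 1 to 15 reads each in a library of isolated mitochondria and by an estimated 268 to 1043 reads in remaining tissue, and 6 of them had at most 3 reads in at least 1 library of isolated mitochondria. The deposited values are normalized counts, that is, reads divided by a size factor of the library, and 1 read is worth 9.05 and 5.06 normalized counts in isolated mitochondria replicates 1 and 2. The tissue label was checked with 10 myofibre markers, none of which was at 0 in any library. Their summed share was 170466 and 176139 ppm (reads in 1000000 nuclear reads) in remaining tissue, against 57519 and 55108 ppm in isolated mitochondria. A list of 6 hepatocyte markers went the other way, with 13030 and 2539 ppm in isolated mitochondria against 149 and 27.0 ppm in remaining tissue, and no marker at 0. Of 4 endothelial markers, whose sum was 225 and 221 ppm in remaining tissue but 59.5 and 88.3 ppm in isolated mitochondria, 2 and 1 were at 0 in isolated mitochondria replicates 1 and 2. In such bulk fractions, fewer cells of a type, less RNA per cell and what the fractionation kept or lost cannot be told apart.

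Most of the 10 genes had lower normalized counts in isolated mitochondria than in remaining tissue, and Ivd and Hibadh did so past the test. In 8 of 10 genes the values of isolated mitochondria lay below both values of remaining tissue, against 43.7% of all 6916 genes tested, and in 0 of 10 they lay above, against 25.5%. With limma and Benjamini-Hochberg adjustment over all genes tested, 2 of 10 were lower at an adjusted p under 0.05 (9.3% of all genes tested). At this threshold 0 of 10 were higher (7.32%). The median log2 fold change, isolated mitochondria minus remaining tissue, was -1.32 over the 10 genes and -0.44 over all genes tested. By leave-one-out, the spread came only from the group that kept 2 libraries. Counts of calls from these fits moved widely for members and for all genes alike, and nothing is read from them.

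**Figure D1:**
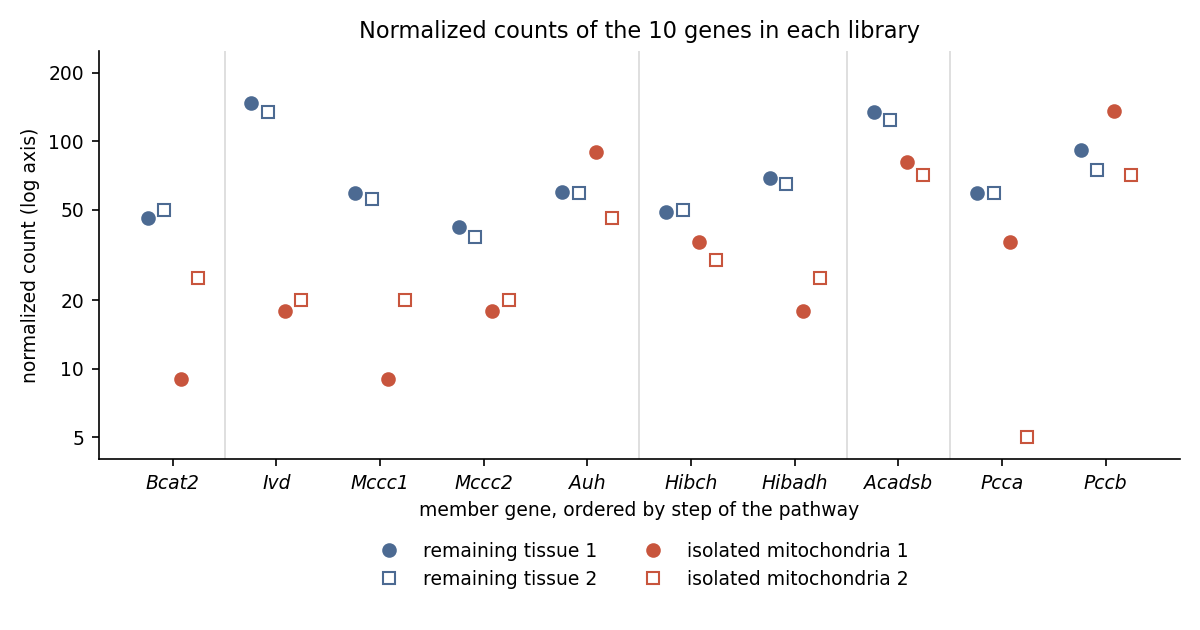
Normalized counts (log axis) of the 10 genes, in the order of the pathway, in each of the 2 libraries of remaining tissue (blue) and of isolated mitochondria (red). Filled circles are replicate 1 and open squares replicate 2, and the groups overlap for Auh and Pccb.

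Transamination was represented by Bcat2 (chr7:45570153-45589711, plus strand of GRCm38, 11 exons in an mRNA of 1772 nt). Bcat2 had 46 and 50 normalized counts in remaining tissue and 9 and 25 in isolated mitochondria, which stand for 1 and 5 reads. Both libraries of isolated mitochondria lay lower, and they rest on few reads. This gave a log2 fold change of -1.60 ± 0.59 (SE, n = 2 per group) with an adjusted p of 0.14 in limma. Without isolated mitochondria replicate 1, with 5 reads left, the log2 fold change moved to -0.91, and without replicate 2, with 1 read left, to -2.29. The ratio of pooled reads, isolated mitochondria over remaining tissue, was 0.406 with a 95% counting interval of 0.148 to 0.888. Bcat2 shares 249 nt with 0610005C13Rik, which lies on the opposite strand, and the strand setting of the read counting is not given in the sources used here, so its counts are uncertain.

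The leucine branch held the clearest difference. Ivd (chr2:118861954-118882909, plus strand, 12 exons, mRNA of 3665 nt) encodes isovaleryl-CoA dehydrogenase, the flavoenzyme that follows the dehydrogenase complex. It had 148 and 134 normalized counts in remaining tissue and 18 and 20 in isolated mitochondria. These last values stand for 2 and 4 reads, against an estimated 1043 and 945 reads in remaining tissue. Both values of isolated mitochondria lay far below those of tissue, and the closeness of these 2 values is narrower than counting error at 2 and 4 reads, so that neither it nor the SE given next covers the full error. Its level averaged 141 ± 9.90 in tissue and was 7.42-fold lower, 19.0 ± 1.41, in isolated mitochondria (SD, n = 2 each). The log2 fold change was -2.83 ± 0.26 (SE, n = 2 per group; 95% interval -3.54 to -2.12), with an adjusted p of 0.013 in limma. The ratio of pooled reads was 0.138, with a counting interval of 0.0506 to 0.301. Under 19 alternatives Ivd was lower in each and called in 17. These include fits without a library of isolated mitochondria, and totals over all genes and outside the mitochondrial genome. With these totals 6694 and 5642 of 6916 genes were lower. On reads, the adjusted p of Ivd was 0.0049 (edgeR, deposited size factors), 0.0051 (edgeR, TMM) and 2.7e-04 (DESeq2). The call was lost without remaining tissue replicate 1 (log2 fold change -2.76) and without replicate 2 (-2.90).

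Mccc1 (chr3:35959312-36000678, minus strand, 19 exons, mRNA of 2455 nt) and Mccc2 (chr13:99948530-100015639, minus strand, 17 exons, mRNA of 2123 nt) encode the α and β subunits of 3-methylcrotonyl-CoA carboxylase, the biotin enzyme after Ivd. Mccc1 had 59 and 56 normalized counts in remaining tissue and 9 and 20 in isolated mitochondria, from 1 and 4 reads. Mccc2 had 42 and 38 normalized counts in remaining tissue and 18 and 20 in isolated mitochondria, from 2 and 4 reads. Neither gene overlapped between groups, and neither passed the test in limma. For Mccc1 the log2 fold change was -2.01 ± 0.50 (SE, n = 2 per group; adjusted p in limma 0.069), and without isolated mitochondria replicate 1 or 2 it was -1.48 or -2.55. Mccc1 was called lower in 7 of 18 alternatives. They include edgeR with the deposited size factors (adjusted p 0.031) and with TMM (0.048), where 1215 and 871 of 6916 genes were lower. The remaining calls came from the replicate block, fits without a library of isolated mitochondria, and totals over all genes or outside the mitochondrial genome. Each of those totals called all 10 members lower, so that the tally says little of Mccc1. The ratio of the pooled reads of Mccc1 was 0.282 with a counting interval of 0.0913 to 0.661. For Mccc2 the log2 fold change was -1.04 ± 0.35 (SE, n = 2 per group; adjusted p in limma 0.12), and the ratio of its pooled reads was 0.487 with an interval of 0.178 to 1.07. Exons of Mccc1 overlap the antisense genes B230207O21Rik, Gm15952 and Mccc1os, so that its counts are uncertain in the way of those of Bcat2.

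Auh (chr13:52835119-52929681, minus strand, 10 exons, mRNA of 1320 nt) encodes methylglutaconyl-CoA hydratase, the last step before the cleavage that yields acetoacetate, and its protein also binds AU-rich RNA. Its normalized counts were 60 and 59 in remaining tissue and 90 and 46 in isolated mitochondria, from 10 and 9 reads. The values of isolated mitochondria lay on both sides of those of tissue. The log2 fold change was 0.11 ± 0.41 (SE, n = 2 per group; 95% interval -1.0 to 1.23; adjusted p in limma 0.86), and the ratio of pooled reads was 1.04 with a counting interval of 0.621 to 1.63. The sign turned when isolated mitochondria replicate 1 was left out (log2 fold change -0.36), and without replicate 2 the value was 0.59. In these fits the library that is left is assumed to vary like the other group. A difference of the size seen for Ivd lies outside the interval of Auh, and the difference between the genes was not tested.

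Of the valine branch, Hibch (chr1:52844929-52920986, plus strand, 14 exons, mRNA of 1830 nt) encodes 3-hydroxyisobutyryl-CoA hydrolase, which frees the acid from coenzyme A, and Hibadh (chr6:52546228-52640389, minus strand, 8 exons, mRNA of 1825 nt) encodes the dehydrogenase that oxidises 3-hydroxyisobutyrate next. Hibch had 49 and 50 normalized counts in remaining tissue and 36 and 30 in isolated mitochondria, from 4 and 6 reads. Hibadh had 69 and 65 in remaining tissue and 18 and 25 in isolated mitochondria, from 2 and 5 reads. Groups did not overlap for either gene. Hibadh was 3.12-fold lower by the group means (67.0 ± 2.83 and 21.5 ± 4.95, SD, n = 2 each). Its log2 fold change was -1.61 ± 0.32 (SE, n = 2 per group; 95% interval -2.50 to -0.73) with an adjusted p of 0.046 in limma. This call lay close to the threshold and was lost in 8 of 18 alternatives, which included leaving out remaining tissue replicate 1 (adjusted p 0.66) or replicate 2 (0.61), while the direction was lower in all 18. For Hibch the log2 fold change was -0.58 ± 0.29 (SE, n = 2 per group; adjusted p in limma 0.23), and the ratio of pooled reads was 0.656 with a counting interval of 0.313 to 1.21.

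Acadsb (chr7:131410601-131448944, plus strand, 10 exons, mRNA of 2466 nt), the short/branched-chain acyl-CoA dehydrogenase of the isoleucine branch, does for 2-methylbutyryl-CoA what Ivd does for isovaleryl-CoA. Its normalized counts were 134 and 124 in remaining tissue and 81 and 71 in isolated mitochondria, from 9 and 14 reads. Groups did not overlap, and the gap was narrower than that of Ivd. The log2 fold change was -0.76 ± 0.22 (SE, n = 2 per group; 95% interval -1.37 to -0.14; adjusted p in limma 0.094). The ratio of pooled reads was 0.578 with a counting interval of 0.366 to 0.871, which does not overlap the interval of Ivd given above. The ratio between the fractions thus differed between these homologous dehydrogenases by more than counting error alone. Replicates of isolated mitochondria themselves differed by more than counting error, with a chi-square per degree of freedom of 4.58 over 4902 genes. The intervals do not cover that spread, and no test over libraries was run on the difference between Ivd and Acadsb.

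Pcca (chr14:122534324-122891100, plus strand, 24 exons, mRNA of 2592 nt) and Pccb (chr9:100982032-101034898, minus strand, 15 exons, mRNA of 2320 nt) encode the α and β subunits of propionyl-CoA carboxylase, where the isoleucine and valine routes meet. Pcca had 59 and 59 normalized counts in remaining tissue and 36 and 5 in isolated mitochondria, from 4 and 1 reads. Pccb had 92 and 75 in remaining tissue and 136 and 71 in isolated mitochondria, from 15 and 14 reads. Pcca lay lower in both libraries of isolated mitochondria but varied 7.20-fold between them, the widest spread of the 10 genes. Pccb overlapped between groups. The log2 fold change of Pcca was -2.01 ± 0.97 (SE, n = 2 per group; adjusted p in limma 0.21) with a ratio of pooled reads of 0.275 (counting interval 0.0890 to 0.644). Without isolated mitochondria replicate 1 it was -3.32, where the library left held 1 read. Without replicate 2 it was -0.70, where the library left held 4 reads. For Pccb the log2 fold change was 0.24 ± 0.40 (SE, n = 2 per group; adjusted p in limma 0.69) with a ratio of pooled reads of 1.13 (counting interval 0.751 to 1.63), and the sign turned without isolated mitochondria replicate 1 (log2 fold change -0.22).

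**Figure D2:**
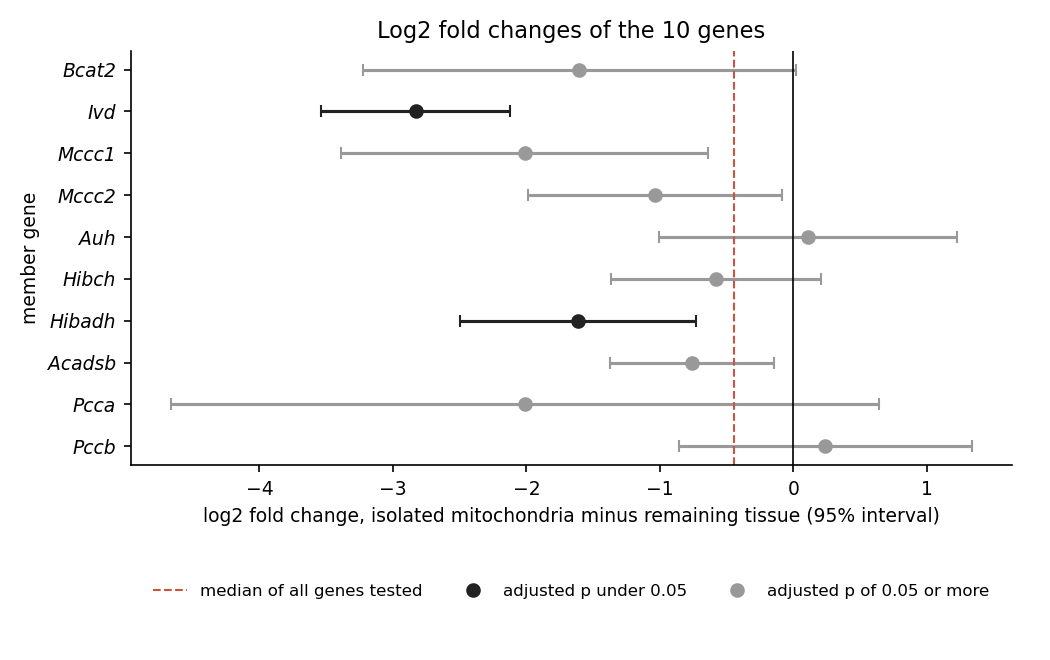
Log2 fold change of each gene, isolated mitochondria minus remaining tissue, with its 95% interval from limma (2 libraries per group). Black points mark the 2 genes with an adjusted p under 0.05, Ivd at -2.83 and Hibadh at -1.61, and the dashed line is the median of all genes tested at -0.44.

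The direction of a fold change depended on what the libraries were scaled to, so the members were also set against the median gene. The median log2 fold change of all genes tested was -0.44 with the size factors as deposited, -6.90 for totals over all genes, -3.34 for totals outside the mitochondrial genome, and 0.43 for totals of nuclear genes other than copies of that genome. Of all calls, 44.0% were higher with the deposited size factors, 0.565%, 1.98% and 85.8% with these totals, 55.5% with the upper quartile, 55.2% with quantile normalization and 55.9% with TMM in edgeR. Relative to the median gene, over these 7 scalings, Ivd lay between -2.58 and -2.20, Hibadh between -1.28 and -1.01, and Acadsb between -0.56 and -0.22. Auh lay between 0.34 and 0.57 and Pccb between 0.39 and 0.78 above it. The other 5 genes lay between -1.78 (Pcca) and -0.13 (Hibch). Most of these scalings multiply a library by a single factor and so move a gene and the median gene nearly alike, which leaves these ranges as a description of position and no sign of stability. In absolute direction, Auh and Pccb became lower with the total of all genes and with the total outside the mitochondrial genome, and Hibch and Acadsb became higher with the nuclear total.

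As a share of nuclear reads, the 10 genes together were close between fractions. They took 446 and 418 ppm of nuclear reads in remaining tissue (95% Wilson intervals 434 to 458 and 407 to 430), and 495 and 364 in isolated mitochondria (376 to 653 and 286 to 463), from 50 and 66 reads. Averaged per group, they took 432 ± 19.4 and 430 ± 92.7 ppm (SD, n = 2 each), and the difference was smaller than the spread between replicates. Without Ivd, the other 9 took 359 and 339 ppm in remaining tissue and 476 and 342 ppm in isolated mitochondria. Leucine genes took 182 and 169 ppm in remaining tissue and 149 and 116 in isolated mitochondria, but without Ivd 94.7 and 90.2 in remaining tissue and 129 and 93.8 in isolated mitochondria. Bcat2 took 27.0 and 29.4, and 9.91 and 27.6, the valine genes took 69.3 and 67.7, and 59.5 and 60.7, and Acadsb took 78.8 and 73.0, and 89.2 and 77.3, in the same order of libraries. The propionyl-CoA carboxylase genes took 88.8 and 79.0 in remaining tissue and 188 and 82.8 in isolated mitochondria. In both replicates of isolated mitochondria, the Wilson interval included at least 1 of the tissue values for Bcat2 and for the leucine, valine and isoleucine genes, and for the carboxylase genes it did so in replicate 2 and not in replicate 1. No test was run on these shares, for which an exact two-sided permutation test of 2 libraries against 2 could give no p below 0.333.

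**Figure D3:**
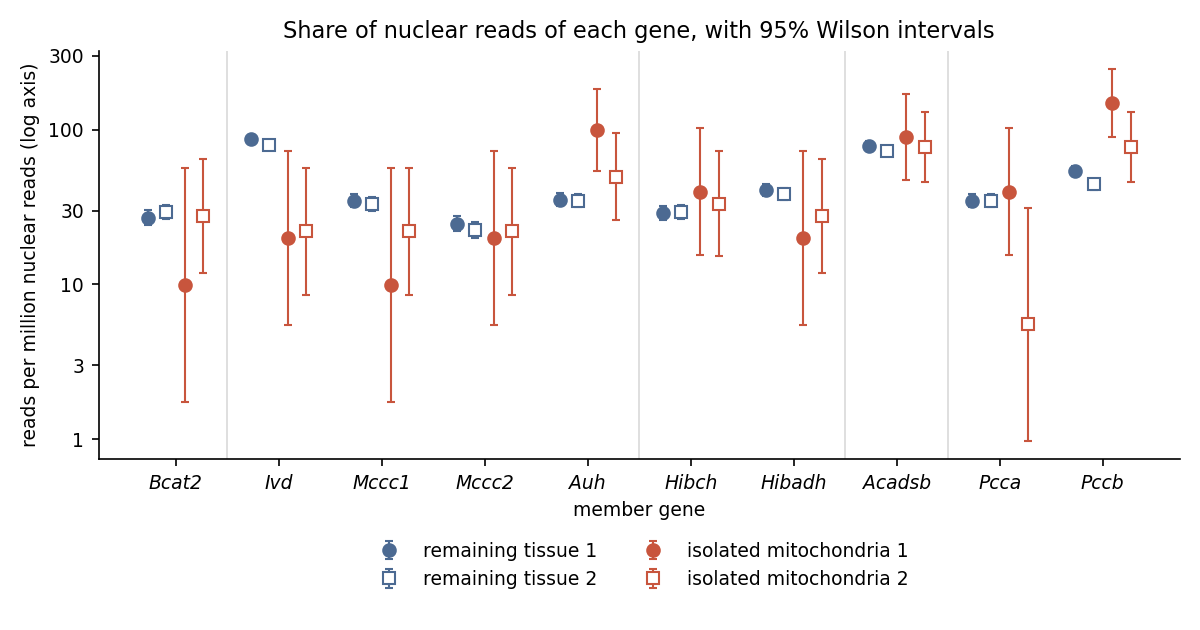
Share of nuclear reads of each gene in ppm (log axis) in each library, with 95% Wilson intervals. Intervals are narrow in remaining tissue and wide in isolated mitochondria, where the 10 genes hold 50 and 66 reads. Both points of Ivd, Mccc1, Mccc2 and Hibadh in isolated mitochondria lie below their tissue points. Those of Auh, Hibch and Pccb lie above their tissue points.

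Within the reads of the 10 genes, a share needs no scaling between libraries. Ivd took 19.5% and 18.9% of these reads in remaining tissue (95% Wilson intervals 18.5 to 20.6 and 17.8 to 20), but 4.00% and 6.06% in isolated mitochondria (1.10 to 13.5 and 2.38 to 14.6). Pccb took 12.1% and 10.6% in remaining tissue (11.3 to 13.1 and 9.75 to 11.5), and 30% and 21.2% in isolated mitochondria (19.1 to 43.8 and 13.1 to 32.5). Auh took 7.92% and 8.31% in remaining tissue and 20% and 13.6% in isolated mitochondria (11.2 to 33 and 7.34 to 23.9). Ivd, the largest part of the member reads in tissue, was thus among the smaller parts in isolated mitochondria, and Pccb was the largest or level with Acadsb.

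The subunits of a carboxylase were compared in the same way. Mccc1 took 58.4% and 59.6% of the reads of Mccc1 and Mccc2 in remaining tissue, and 33.3% and 50% in isolated mitochondria, where only 3 and 8 reads were counted (95% Wilson intervals 6.15 to 79.2 and 21.5 to 78.5). A difference was not detectable at this depth. Pcca took 39.1% and 44.0% of the reads of Pcca and Pccb in remaining tissue (36.2 to 42.0 and 40.9 to 47.2), and 21.1% and 6.67% of 19 and 15 reads in isolated mitochondria (8.51 to 43.3 and 1.19 to 29.8). The β subunit therefore held the larger part in all 4 libraries, with a lower share of Pcca in isolated mitochondria whose interval reached into the tissue intervals in replicate 1 and not in replicate 2. Hibch took 41.5% and 43.5% of the reads of Hibch and Hibadh in remaining tissue, and 66.7% and 54.5% of 6 and 11 reads in isolated mitochondria, with intervals of 30 to 90.3 and 28.0 to 78.7 that include the tissue values.

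**Figure D4:**
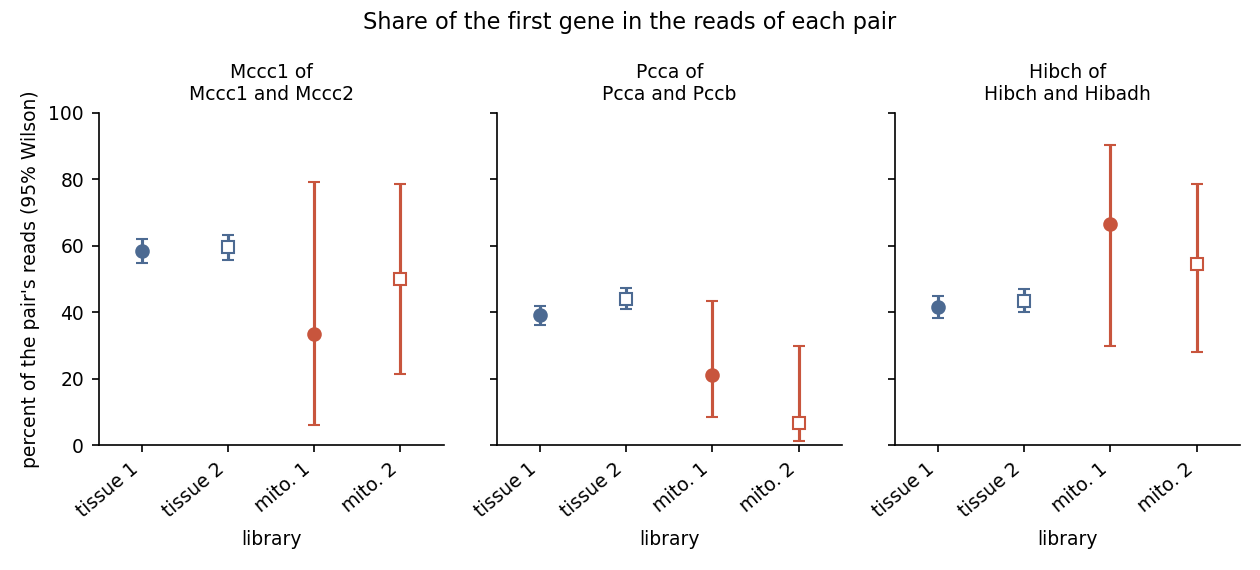
Percent of the reads of a gene pair that fell on its first gene, in each library, with 95% Wilson intervals, for the subunits of both carboxylases and for the consecutive valine enzymes. The shares of Pcca in isolated mitochondria (21.1% and 6.67%) lie below those in remaining tissue (39.1% and 44.0%). Its interval in isolated mitochondria replicate 1 includes the tissue share of 39.1%, and that in replicate 2 includes neither tissue share. For the other pairs, the intervals in isolated mitochondria include the tissue shares.

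The levels of the genes in remaining tissue were ordered after division by mRNA length. Acadsb was highest, at 52.3 ± 2.87 normalized counts per kb, followed by Auh at 45.1 ± 0.536 and Ivd at 38.5 ± 2.7 (SD, n = 2 each). Hibadh (36.7 ± 1.55) and Pccb (36 ± 5.18) came next and did not differ from Ivd or from each other beyond their spread. Bcat2 (27.1 ± 1.60) and Hibch (27.0 ± 0.386) were level, Mccc1 (23.4 ± 0.864) and Pcca (22.8 ± 0) likewise, and Mccc2 was lowest at 18.8 ± 1.33. The order depended on the transcript chosen, since per length of all annotated exons Pccb came first (30.1 normalized counts per kb) and Auh ninth of the 10 (6.21). Per kb of mRNA in isolated mitochondria, Auh (51.5 ± 23.6) and Pccb (44.6 ± 19.8) were highest and Ivd was lowest (5.18 ± 0.386), within the spread of Mccc1 (5.91 ± 3.17).

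Among the other genes of BCAA catabolism, 24 of 29 found in the table passed the filter on low values. Of these, 4 were lower and 1 was higher at an adjusted p under 0.05 (limma), beside 9.3% and 7.32% of all genes tested, and their median log2 fold change was -0.68. Hadha and Hadhb, the α and β subunits of the trifunctional protein of fatty acid oxidation, had log2 fold changes of -1.16 ± 0.19 and -1.10 ± 0.22 (SE, n = 2 per group; adjusted p in limma 0.031 and 0.045). Aldh6a1, the methylmalonate semialdehyde dehydrogenase that follows Hibadh, had 167 and 162 normalized counts in remaining tissue and 72 and 76 in isolated mitochondria (log2 fold change -1.14 ± 0.21, SE, n = 2 per group; adjusted p in limma 0.039). The last of the lower genes belonged to the 6 genes of the dehydrogenase complex and its regulators, of which 1 was lower, 0 were higher and the median was -0.46. The hepatocyte markers given above were higher in isolated mitochondria replicate 1 than in replicate 2, as were 5 of the 10 members (Auh, Hibch, Acadsb, Pcca and Pccb), and their part in the values of these genes was not tested. Slc25a44, a mitochondrial BCAA carrier, had 48 and 42 normalized counts in remaining tissue and 27 and 25 in isolated mitochondria (log2 fold change -0.77 ± 0.31, SE, n = 2 per group; adjusted p in limma 0.16). Bcat1, the cytosolic aminotransferase, was not analysed here.

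For orientation, 3 lists of other metabolic pathways were counted in the same comparison. Of all genes tested, 9.3% were lower and 7.32% higher at an adjusted p under 0.05 (limma). Of 17 tested genes of the tricarboxylic acid cycle, 7 were lower and 0 higher, with a median log2 fold change of -1.0. In fatty acid oxidation, 3 of 15 tested genes were lower and 0 higher (median -0.85), and this list shares Hadha, Hadhb and further genes with the other BCAA genes. All 11 genes of glycolysis, whose proteins act in the cytosol, were lower (median -1.63). The median of the 10 members (-1.32) thus lay between those of the tricarboxylic acid cycle and of glycolysis. No difference between lists was tested.

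**Figure D5:**
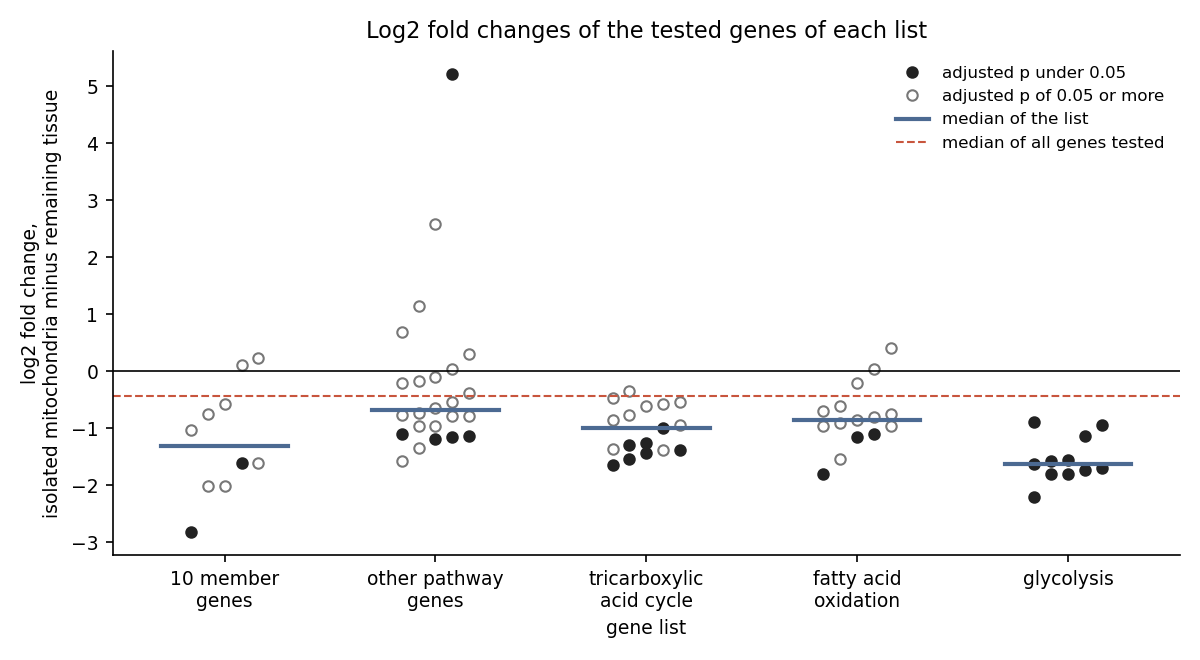
Log2 fold changes, isolated mitochondria minus remaining tissue, of the tested genes of 5 lists. Filled points had an adjusted p under 0.05, blue bars are list medians (-1.32 for the 10 members, -1.63 for glycolysis), and the dashed line is the median of all genes tested (-0.44), below which 8 of the 10 members lie.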

How the data were processed

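RNA of 4 libraries (2 per group) had been made from 10 ng of total RNA with a stranded low-input kit, and fragmentation was adjusted for mitochondrial samples, so its effect cannot be told apart from the groups. Digitonin and RNase A treatment is described for heart mitochondria and not stated for muscle. Per the labels, the authors used Trimmomatic 0.39, STAR 2.7.10a, featureCounts 2.0.2 and DESeq2 1.30.1 with build mm10. The deposited values are a signal, gene counts that the authors divided by a size factor and rounded, called normalized counts. Whole reads were recovered in isolated mitochondria (100% of 10509 and 11660 low values lay within rounding of a whole number of reads). In remaining tissue reads were estimated at 7.05 per normalized count. The same value was assumed for both libraries there, so a difference in depth between them was not recovered. Read totals and intervals of remaining tissue rest on this assumption.

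The main test used limma 3.58.1 (R 4.3.3, moderated with a mean trend) on log2 of the normalized count plus 1, for genes with a mean of at least 20, two-sided, with Benjamini-Hochberg adjustment over 6916 genes and a threshold of 0.05. The pseudocount understates changes of low genes. edgeR 4.0.16 and DESeq2 1.42.0 on reads were alternatives, beside other scalings, filters, pseudocounts, a replicate block and each library left out. The limma step was also run on simulated reads with the same dispersion for all genes. Its outcome is not given, and nothing is read from it. Ratios of pooled reads have exact 95% binomial intervals and shares Wilson intervals, which cover counting error only. Replicates were not identical, and in isolated mitochondria they differed by a chi-square per degree of freedom of 4.58 over 4902 genes. Coordinates and transcripts are GENCODE M21 (GRCm38), in which 16457 of 16472 identifiers were found. For lengths and sequences the protein-coding transcript with the longest coding part was used. Nuclear reads exclude 37 mitochondrially encoded genes and 17 copies of the mitochondrial genome. Named genes were all members, other pathway genes with an adjusted p under 0.05 outside the dehydrogenase complex, Bcat1 and Slc25a44, and 1 gene that this rule takes is not reported here. Hibch with Hibadh and the relation to the median gene were compared after the values were seen. The members and all lists were chosen with earlier results of these data known.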

Additional observations from a re-analysis of the deposited data

How the results depend on the processing

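Ivd was lower under all 19 alternatives and Hibadh, Bcat2, Mccc1, Mccc2 and Pcca under all 18 that included them. With a mean of at least 50, these last 5 and Hibch were not tested. With the total of all genes and with the total outside the mitochondrial genome, Auh turned to -6.56 and -2.84 and Pccb to -6.51 and -2.73 (log2 fold change), while the nuclear total turned Hibch to 0.30 and Acadsb to 0.13. Leaving out 1 library gave -0.36 to 0.59 for Auh and -0.22 to 0.70 for Pccb, with the values below 0 without isolated mitochondria replicate 1. The Hibadh call was lost with a mean of at least 5 (adjusted p 0.068), quantile normalization (0.062), the nuclear total (0.19), eBayes without trend (0.057), the replicate block (0.050) and DESeq2 (0.083). Member genes called lower numbered 1 with a mean of at least 5, a mean of at least 50, quantile normalization, the nuclear total, eBayes without trend and DESeq2, and 10 with the total of all genes and with the total outside the mitochondrial genome. By leave-one-out, 0 to 9 were lower and 0 to 1 higher.

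Over all genes, 3026 were lower with no filter, 283 higher and 399 lower with a mean of at least 5, 390 lower with quantile normalization, 38 higher and 6694 lower with the total of all genes, 114 higher and 5642 lower with the total outside the mitochondrial genome, 1107 higher and 183 lower with the nuclear total, 374 lower without trend, 939 higher and 1215 lower with edgeR on the deposited size factors, 1106 higher with TMM, 1404 higher with DESeq2, and 296 to 1724 higher and 176 to 3198 lower by leave-one-out. Of the other pathway genes, 2 were higher with no filter, without trend and with edgeR on the deposited size factors, 3 with the nuclear total, TMM and DESeq2, and 0 with a mean of at least 5 and with the total of all genes. Lower ones numbered 1 with a mean of at least 5 and the upper quartile, 0 with quantile normalization, the nuclear total and without trend, 23 with the total of all genes and 22 with the total outside the mitochondrial genome. By leave-one-out, 1 to 4 were higher and 0 to 14 lower.

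The 10 genes took 334 ppm of the reads of all genes in remaining tissue but 1.52 ppm in isolated mitochondria, where they took 28.3 ppm of reads outside the mitochondrial genome. Leaving out a library leaves the other library of its group, which says nothing of the stability of a share. Same-numbered libraries correlated at 0.141 in their deviations from group means over 6862 genes, and no label says that they share an animal. With the replicate block as a pairing, 1144 genes were lower over all genes, 3 members were lower (Ivd, Mccc1 and Pcca, with adjusted p of 1.1e-04, 0.040 and 0.043), and Hibadh lost its call as given above. Depth in isolated mitochondria, 1 to 15 reads per member, limits each fold change.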

Other observations

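The table's own annotation assigns 44 genes to valine, leucine and isoleucine degradation, which include all 10 enzymes described above. Of the 34 others, 30 were tested, with 3 higher and 4 lower in isolated mitochondria at an adjusted p under 0.05 (limma) and a median log2 fold change of -0.29. The same counts over all 44 were 40 tested, 3 higher and 6 lower, with a median of -0.65. This list was chosen after the values were seen.

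Values follow for 3 further genes of the pathway that were not called. Abat, an aminotransferase best known for the breakdown of GABA, had 7 and 4 normalized counts in remaining tissue and 45 and 30 in isolated mitochondria, from 5 and 6 reads (log2 fold change 2.58 ± 0.72, SE, n = 2 per group; adjusted p in limma 0.086). Mmaa, which serves the cobalamin enzyme downstream of propionyl-CoA carboxylase, had 17 and 15 in remaining tissue and 0 reads in either library of isolated mitochondria. Taken library by library, 0 reads allow up to 3 reads, a level that reaches at least the lower tissue value. A joint limit over both libraries was not computed and would be lower. Oxct1, which activates acetoacetate in tissues that use ketone bodies, had 491 and 441 in remaining tissue and 109 and 223 in isolated mitochondria, from 12 and 44 reads (log2 fold change -1.57 ± 0.40, SE, n = 2 per group; adjusted p in limma 0.072). These genes were chosen after their values were seen.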
